A study of Mus musculus with 3 samples.

Results

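The transcripts of 42 genes that drive the cell cycle were examined in single cells of mouse blastocysts at embryonic day 3.5. The genes were listed by name and cover the cyclins, their kinases, DNA replication and mitosis. All 42 were found among the 23154 gene rows of each count table. They were read in the 225 of 288 cell barcodes in which at least 2000 genes had a count. The embryos came from the Klf2-H2Bmcherry mouse line, a reporter of fluid flow forces in which a red nuclear marker reports on Klf2. They were taken at E2.5, cultured in KSOMaa medium with static and shaking culture, stripped of the zona pellucida and separated into single cells, and cells of embryos with mCherry signal were picked by hand. Which cells were shaken, how many embryos were used and of which strain they were is not stated, so the 3 libraries of 96 barcodes form 1 group and are called replicates 1, 2 and 3. It is not stated either that the libraries stem from separate cultures or animals. The p-values then measure the spread between these 3 samples alone, and that spread may be technical.

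The cell cycle is driven by cyclins, which rise and fall, and by the kinases they activate. Cyclin D with Cdk4 or Cdk6 and then cyclin E with Cdk2 carry a cell out of G1. Cdc6 and Cdt1 load the ring of Mcm2 to Mcm7 onto origins, ribonucleotide reductase makes the building blocks of DNA, and Gmnn and Dtl keep origins from being loaded again. Cyclin B with Cdk1, together with the Polo and Aurora kinases, starts mitosis, and Cdc20 and Ube2c tag cyclin B for destruction at its end. Cells of the early embryo divide fast and are known for a short G1. In other cells the promoters of S phase genes are known to bind E2F factors. Those of mitotic genes are known for a short element called the CHR (cell cycle genes homology region), with CCAAT boxes upstream of it that bind NF-Y.

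Promoters are shown for mitotic and S phase genes, whose correlations across cells are described further on. These elements are known for timing such genes in other cells, and a link to the correlations was not tested. RefSeq promoters on build GRCm38.p6 were at hand for 34 of the 42 genes, and the 250 bases before each start were searched on both strands. The letters searched were TTTGAA and TTTAAA for the CHR, CCAAT for the CCAAT box, and GGCGGGAA, GGCGCGAA, TTTGGCGC and TTTCCCGC for E2F. TTTAAA is its own reverse complement, and GGCGCGAA and TTTGGCGC can overlap. The last 150 bases before the start are printed for 6 mitotic genes, with matches to any of these letters in capitals.
Ccnb1, chr13:100786487-100786636, minus strand: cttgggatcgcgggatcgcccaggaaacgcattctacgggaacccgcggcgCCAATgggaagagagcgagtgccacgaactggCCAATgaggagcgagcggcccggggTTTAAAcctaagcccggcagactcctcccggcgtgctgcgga
Cdk1, chr10:69352913-69353062, minus strand: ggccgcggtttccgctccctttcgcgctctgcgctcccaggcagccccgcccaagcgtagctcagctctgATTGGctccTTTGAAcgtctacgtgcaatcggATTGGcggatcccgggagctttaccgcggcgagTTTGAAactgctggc
Plk1, chr7:122159285-122159434, plus strand: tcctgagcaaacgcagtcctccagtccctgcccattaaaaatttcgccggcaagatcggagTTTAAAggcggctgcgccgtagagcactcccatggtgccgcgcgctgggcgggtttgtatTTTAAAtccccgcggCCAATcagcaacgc
Ube2c, chr2:164769779-164769928, plus strand: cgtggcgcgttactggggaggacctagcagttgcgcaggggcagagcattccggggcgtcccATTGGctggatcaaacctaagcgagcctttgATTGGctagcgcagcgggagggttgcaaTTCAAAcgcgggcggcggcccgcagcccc
Top2a, chr11:99024190-99024339, minus strand: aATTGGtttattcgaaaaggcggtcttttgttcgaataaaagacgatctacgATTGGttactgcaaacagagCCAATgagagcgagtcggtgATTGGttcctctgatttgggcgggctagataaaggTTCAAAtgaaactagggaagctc
Ccnb2, chr9:70421555-70421704, minus strand: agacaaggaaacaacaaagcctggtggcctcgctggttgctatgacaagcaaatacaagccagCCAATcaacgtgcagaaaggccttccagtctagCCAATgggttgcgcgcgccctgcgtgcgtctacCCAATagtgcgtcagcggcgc
CHR letters were in 9 of the 14 M phase promoters, in 3 of the 15 S phase promoters and in 1 of the 5 promoters of G1 genes, against 25.2% of all 32851 promoters in the table. CCAAT was in 13, 10 and 3 of them, against 33.8% of all promoters. In Ccnb1, Ube2c and Top2a the CHR letters began 42, 29 and 23 bases before the RefSeq start, and a CCAAT box lay upstream of them in each. Ccnb2 had 3 CCAAT boxes in the stretch shown, and its CHR letters lay farther upstream. The same 150 bases follow for 4 S phase genes.
Mcm5, chr8:75109359-75109508, plus strand: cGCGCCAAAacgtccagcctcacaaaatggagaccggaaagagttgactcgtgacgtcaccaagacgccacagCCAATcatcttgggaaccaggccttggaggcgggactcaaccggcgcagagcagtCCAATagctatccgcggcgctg
Mcm6, chr1:128359706-128359855, minus strand: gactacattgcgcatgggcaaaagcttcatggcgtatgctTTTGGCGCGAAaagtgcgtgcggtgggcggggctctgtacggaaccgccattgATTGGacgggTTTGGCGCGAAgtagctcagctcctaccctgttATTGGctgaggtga
Rrm1, chr7:102441545-102441694, plus strand: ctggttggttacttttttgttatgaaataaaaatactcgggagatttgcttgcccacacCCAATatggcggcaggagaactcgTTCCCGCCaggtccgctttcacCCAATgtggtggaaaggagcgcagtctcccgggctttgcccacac
Dtl, chr1:191575545-191575694, minus strand: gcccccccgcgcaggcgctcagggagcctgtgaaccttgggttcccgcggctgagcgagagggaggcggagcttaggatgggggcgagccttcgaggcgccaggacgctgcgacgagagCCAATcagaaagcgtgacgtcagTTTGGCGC
E2F letters were in 7 of the 15 S phase promoters, in none of the 14 M phase promoters and in 1 of the 5 G1 promoters, that of Cdk2, against 3.08% of all promoters. In Mcm6 the overlapping pair of E2F forms occurred at 2 places. These matches describe letters in a window, and a promoter without a match says nothing about the factor. The RefSeq start of Plk1, Ccnb2, Mcm5 and Mcm6 was not inside a GENCODE M21 transcript over its first bases, so their windows may sit some bases off. In Ccnb1, Cdk1 and Ube2c the GENCODE M21 gene begins within the stretch printed, at bases 100786570, 69352938 and 164769898. Distances from the start would differ there with the GENCODE start.

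Replicates 1, 2 and 3 held 83, 64 and 78 kept cells, with median totals of 286484, 345414 and 608734 counts per cell. Cells were grouped by markers of the trophectoderm (TE), the outer epithelium, and of the inner cell mass (ICM), and none of the 42 genes was among these markers. There were 98 TE-like cells (28, 33 and 37 in replicates 1 to 3), 99 ICM-like cells (36, 27 and 36) and 28 unnamed cells (19, 4 and 5). The 18 TE markers summed to 5746, 5757 and 7790 CPM (counts scaled to 1 common total per library or class) in TE-like cells and to 539, 859 and 642 CPM in ICM-like cells. The 6 ICM markers summed to 426, 483 and 404 CPM in the TE-like class and to 1162, 1265 and 1056 CPM in the other, with Sox2 at 0 in both. The 10 epiblast markers overlapped between the classes (3339, 1032 and 3139 against 3417, 1178 and 3077 CPM). The 20 primitive endoderm markers were higher in TE-like cells in 3 of 3 libraries (874, 3634 and 1944 against 652, 1909 and 940 CPM). Markers of blood summed to at most 0.033 CPM, and those of cumulus and granulosa cells to at most 4.2 CPM. Replicate 2 stood apart from the others: ribosomal protein genes took 4.72% of its counts, against 14.7% and 14.5% in replicates 1 and 3. Each library used the same 96 barcode numbers, of which 46 passed in all 3.

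The 42 genes together took 0.428%, 1.39% and 0.768% of the counts of replicates 1, 2 and 3. Levels were taken as CPM of all kept cells of a library, unnamed cells included. The 3' ends of the cDNA were captured, so a count does not grow with transcript length, and CPM were not divided by it. The level of a single gene differed between libraries by a median of 4.01-fold from lowest to highest, and by over 5-fold for 14 of 42 genes. Over the 4260 genes of at least 50 CPM in the tables the median was 3.54-fold. Replicate 2 was highest for 25 of the 42 genes, 13 of the 18 S phase genes among them, and 44.1% of the 4260 genes were also highest there. Levels are therefore given by library. The exons of 13 of the 42 genes overlap those of a gene on the other strand, among them Ccna2 (with Exosc9), Ccnd3 (Bysl), Cdk4 (Tspan31), Cdc20 (Elovl1), Mcm7 (Ap4m1) and Ube2c (Tnnc2). No source used here gives the strand setting of the counting, so reads of the 2 genes cannot be told apart. The 3' ends of Ccnb1 and Mcm7 also share 29.9% and 45.4% of their 31-base words with a processed pseudogene each (Ccnb1-ps and Gm5487), and their levels carry that uncertainty.

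Of the cyclin D genes, their kinases and Cdkn1b, Cdk4, a kinase partner of cyclin D, was the most abundant. Over all kept cells it was also the most even, at 225, 189 and 261 CPM in replicates 1, 2 and 3. In the named cells it was at 331, 190 and 263 CPM. Ccnd3 followed with 84.3, 16.3 and 23.8 CPM over all kept cells. Cdk6, the other cyclin D kinase, was at 53.6, 2.22 and 6.49 CPM, but unnamed cells held 92.1% of its counts in replicate 1, and in the named cells of that library it was at 6.55 CPM. Cdkn1b, which encodes the Cdk inhibitor p27, was low at 14.5, 4.25 and 1.64 CPM. In the switch to S phase, Cdk2 had the widest range of all 42 genes, at 8.98, 424 and 91.4 CPM. Ccne1 was at 64.8, 51.1 and 40.7 CPM and Cdc25a, the phosphatase that activates Cdk2, at 28.2, 62.1 and 63.0 CPM. E2f1 did not pass 7.41 CPM in any library.

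Of the replication genes, Rrm2, the regulated subunit of ribonucleotide reductase, had the highest mean of all 42 genes, at 225, 2403 and 1127 CPM, and its partner Rrm1 was at 125, 979 and 256 CPM. Pcna, the clamp that holds the polymerase on DNA, was at 33.2, 90.6 and 205 CPM, and Pola2 of the primase complex at 49.5, 92.6 and 31.4 CPM. In the named cells of replicate 1 Pola2 was at 20.1 CPM. Among the licensing genes Mcm5 was at 162, 927 and 240 CPM, Mcm7 at 153, 928 and 234 CPM and Mcm4 at 79.3, 871 and 223 CPM. All 6 Mcm genes were highest in replicate 2, and so were Cdc6, Cdt1 and Dtl. Gmnn, the inhibitor of Cdt1, went the other way, with its lowest level in replicate 2 (191, 136 and 435 CPM).

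Of the mitotic genes, Ccnb1 had the highest mean, at 327, 1178 and 748 CPM. Aurka, the kinase of spindle poles, was at 138, 565 and 348 CPM. Cdk1, the kinase bound by cyclin B, was at 67.5, 259 and 411 CPM. Ccna2, which works in S phase and in early mitosis, had almost the same level over all kept cells of every library, at 113, 118 and 115 CPM. In the named cells it was at 145, 119 and 116 CPM. Of the spindle genes, Top2a, which untangles DNA, was at 221, 388 and 227 CPM and the motor Kif11 at 116, 203 and 115 CPM. In the named cells of replicate 1 Kif11 was at 75.3 CPM. Bub1b, a spindle checkpoint kinase-like protein, was at 156, 192 and 44.3 CPM, with 3910 of its 4765 counts in replicate 1 in a single unnamed cell, and its level in the named cells of that library was 38.0 CPM. Cenpf, a kinetochore protein, was even between libraries over all kept cells, at 100, 86.3 and 92.4 CPM. In the named cells it was at 144, 86.5 and 91.4 CPM. For the exit from mitosis, Ube2c, second by mean among mitotic genes, was at 267, 136 and 717 CPM and Cdc20 at 129, 200 and 156 CPM.

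Detection was compared after each cell had been thinned to 50000 counts, which left 74, 56 and 72 cells and dropped 23 shallower ones. Ccnb1 had a count in 98.6%, 96.4% and 95.8% of these cells and Cdk4 in 91.9%, 91.1% and 90.3%. Plk1, which is needed around mitosis, was seen in fewer, at 51.4%, 66.1% and 68.1% of them, with up to 16, 56 and 22 counts in a cell and medians of 1, 5 and 3. Ccnd2, Cdk6, Cdkn1b and Ccne2 had a count in under 10% of the thinned cells of at least 1 library and were left out of the correlations. Aurkc was seen in 23.0%, 19.6% and 34.7% of the cells and E2f1 in 16.2%, 21.4% and 18.1%. Apart from these genes and Ccne2, every S and M phase gene had a count in at least 44.6% of the cells of each library.

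**Figure D1:**
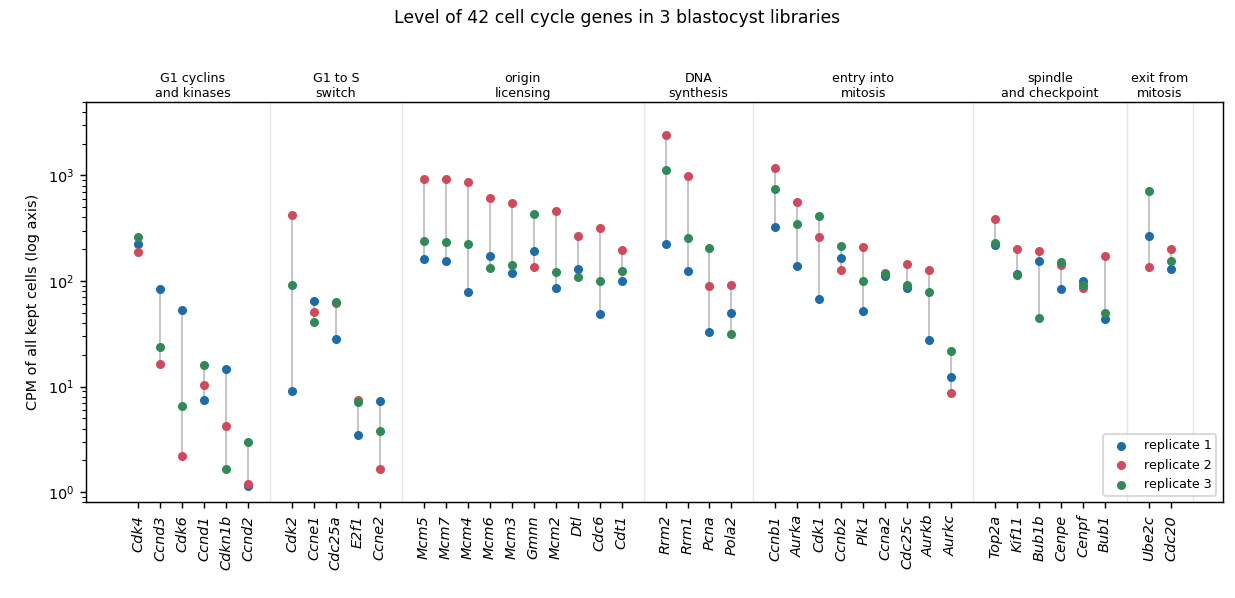
Level of each of the 42 genes in the 3 libraries, in CPM of all kept cells on a log axis, ordered by mean level within groups of like function; each dot is a library and the line joins its lowest and highest value. Of the 18 S phase genes, 13 were highest in replicate 2, Rrm2 with 2403 CPM, while Ccna2 lay between 113 and 118 CPM in all 3.

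Each cyclin family was led by 1 gene, and the gene was the same in both cell classes, at times by a narrow margin. Of the counts of the 3 cyclin D genes, Ccnd3 held 90.7%, 58.5% and 55.7% in replicates 1, 2 and 3 (68.3% ± 19.4, SD, n = 3), Ccnd1 held 8.07%, 37.2% and 37.3%, and Ccnd2 held 1.23%, 4.30% and 6.95%. These shares rest on 2838, 767 and 2317 counts, and unnamed cells held 55.2% of the Ccnd3 counts of replicate 1. Of the cyclin E counts, Ccne1 held 89.95%, 96.8% and 91.5% (92.8% ± 3.61, SD, n = 3) and Ccne2 the rest. Of the cyclin B counts, Ccnb1 held 66.5%, 90.3% and 77.7% (78.2% ± 11.9, SD, n = 3) and Ccnb2 the rest. The leading gene was the same in all 3 libraries for each family. By class, Ccnd3 held 85.9%, 62.7% and 55.3% in TE-like cells and 83.4%, 50.6% and 57.0% in ICM-like cells. In ICM-like cells of replicate 2 it had 136 counts, against 132 of Ccnd1. Ccnb1 held 58.7%, 89.5% and 73.0% in TE-like cells and 71.6%, 91.6% and 83.1% in ICM-like cells. The same genes also led when CPM were divided by the length of the longest transcript, where Ccnd3 had 79.2%, Ccne1 95.05% and Ccnb1 69.4% on average.

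Cyclin choice was then compared between TE-like and ICM-like cells of the same library. Ccnd1 had a smaller share of cyclin D in TE-like cells (8.23%, 30.8% and 32.7%) than in ICM-like cells (15.96%, 49.1% and 42.5%) in all 3 libraries. Ccnd2, the least abundant cyclin D, had a larger share in TE-like cells (5.91%, 6.45% and 11.99%) than in ICM-like cells (0.670%, 0.372% and 0.500%) in all 3, and these groups did not overlap. The Ccnd2 shares rest on 28, 32 and 156 counts in TE-like cells and on 6, 1 and 5 in ICM-like cells. These counts came from only 2, 3 and 3 TE-like and 2, 1 and 2 ICM-like cells, so a few cells set the shares. Ccnb2 held 41.3%, 10.5% and 27.0% of cyclin B in TE-like cells and 28.4%, 8.45% and 16.9% in ICM-like cells, again higher in 3 of 3 libraries. An exact two-sided sign-flip permutation test gave p = 0.25 for each of these 3 genes (adjusted p = 0.438 over 7 comparisons), the smallest p that this test can give with 3 pairs, and it cannot reach 0.05. By level, edgeR called neither Ccnd2 (adjusted p = 0.117) nor Ccnb2. Ccne1 did not differ beyond the spread, with a mean difference of -0.82 percentage points (SD 5.96, n = 3).

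**Figure D2:**
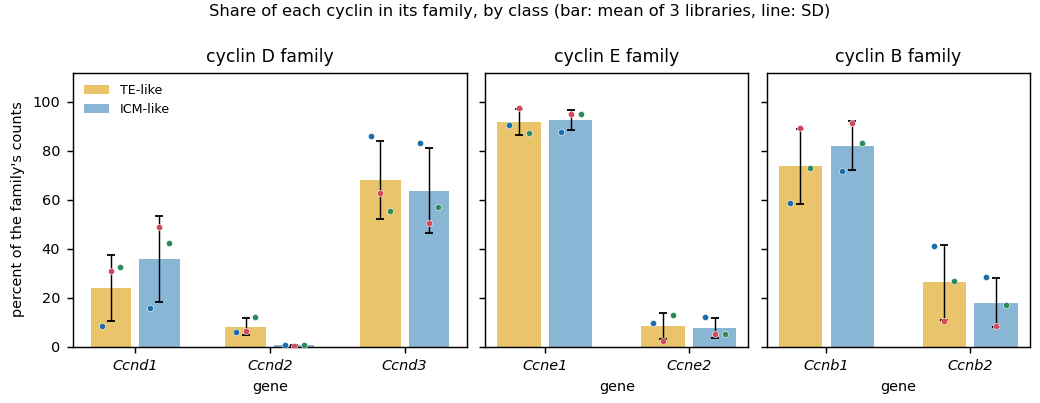
Share of each cyclin in the counts of its family, in percent, in TE-like (yellow) and ICM-like (blue) cells; bars are means over 3 libraries, lines the SD, and dots the libraries (blue, replicate 1; red, replicate 2; green, replicate 3). Ccnd3, Ccne1 and Ccnb1 lead their families on average in both classes, and the Ccnd2 share lies between 5.91% and 11.99% in TE-like cells and under 1% in ICM-like cells.

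Co-variation across single cells was measured by Spearman's rho between the thinned counts of 2 genes over the cells of a library, and the median of the 3 libraries is given. Unnamed cells were included, and they were 16 of 74 cells in replicate 1, 2 of 56 in replicate 2 and 3 of 72 in replicate 3. These cells share embryos, library and amplification, and such values are descriptions with no test. Of 861 pairs, 703 could be measured, and their median was 0.09. The median was 0.15 over 136 pairs of M phase genes, 0.13 over 136 pairs of S phase genes and 0.05 over 289 pairs of an S with an M phase gene. Over all pairs of genes with a count in at least 10% of the cells the medians were 0.02, 0.01 and 0.02 in replicates 1, 2 and 3, and over genes in at least 50% of the cells they were 0.07, 0.02 and 0.04. A rho of at least 0.3 was found in 22.8% of M phase pairs, 20.6% of S phase pairs and 5.54% of mixed pairs. In single libraries these shares were 52.2%, 23.5% and 18.4% for M phase pairs and 39.0%, 19.9% and 17.6% for S phase pairs in replicates 1, 2 and 3, and 17.6%, 7.96% and 7.27% for mixed pairs. Over all pairs of genes in at least 50% of the cells they were 17.95%, 4.23% and 4.64%, so mixed pairs lay at that level in replicate 1.

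A group of mitotic genes varied together. Plk1 and Aurka gave a rho of 0.54, 0.55 and 0.51 in replicates 1, 2 and 3, and Plk1 and Ube2c gave 0.50, 0.56 and 0.52. Ube2c, the enzyme that passes ubiquitin to cyclin B, also varied with Ccnb1 (0.57, 0.54 and 0.55) and with Cdk1 (0.55, 0.42 and 0.61). Cenpf and Top2a joined this group, with medians of 0.47 and 0.43 with Ube2c. Over the 21 pairs of these 7 genes, which were picked for their correlations, the median was 0.41, and it was 0.36 in TE-like cells alone and 0.37 in ICM-like cells alone. Single pairs moved more: Plk1 and Ube2c gave 0.65 and 0.42 in the 2 classes, and Top2a and Ube2c 0.54 and 0.24. Of these 7 genes, all but Aurka hold CHR letters in the 250 bases searched, and Plk1, Ube2c, Cdk1, Ccnb1 and Top2a do so in the stretches printed above. Such letters were in 25.2% of all promoters, and also in Ccnb2, Cdc20 and Kif11, which are not among the 7. A link between these letters and the correlations was not tested. The other cyclin B gene stood outside the group, since Ccnb2 gave a median of 0.11 with Plk1, 0.02 with Ube2c and 0.08 with Cdk1, where Ccnb1 gave 0.43, 0.55 and 0.41. That gap was seen in replicates 2 and 3, while in replicate 1 Ccnb2 and Cdk1 gave 0.41.

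Among S phase genes, several pairs of Mcm genes varied together. Over the 15 pairs of the 6 Mcm genes the median was 0.61, 0.25 and 0.34 in replicates 1, 2 and 3. It was 0.40 in TE-like cells alone and 0.23 in ICM-like cells alone, where 4 of the 15 pairs reached 0.3. Mcm3 gave 0.57, 0.43 and 0.55 with Mcm5 and 0.61, 0.54 and 0.51 with Mcm4 in replicates 1, 2 and 3. Rrm2 and Cdc6, which loads the ring, gave 0.48, 0.47 and 0.44. Rrm2 also gave 0.50, 0.49 and 0.50 with Ccnb1, but as medians only 0.17 with Plk1, 0.19 with Ube2c and 0.19 with Aurka. Genes of 1 protein complex did not all vary together: Mcm6 gave 0.64 with Mcm3 in replicate 1, but -0.05 and 0.12 in replicates 2 and 3. Cdt1 and its inhibitor Gmnn gave 0.49, 0.11 and 0.09, and Dtl, which targets Cdt1 for destruction, gave 0.07 with it as a median.

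The sums of the 2 groups were also set against each other. The summed S phase counts and the summed M phase counts gave a rho of 0.22, -0.15 and -0.05 over 74, 56 and 72 cells, with a different sign in replicate 1. Summed counts of the 18 S phase genes ranged from 16 to 180, from 36 to 1031 and from 23 to 275 per 50000 counts, and those of the 17 M phase genes from 13 to 537, from 40 to 477 and from 23 to 325. No cell had a sum of 0 for either. The 16 unnamed cells of replicate 1 had a median S phase sum of 34.5 and a median M phase sum of 27.5. These medians were 129.5 and 93.5 in TE-like cells and 108 and 117.5 in ICM-like cells of that library. The part of the unnamed cells in the rho of replicate 1 was not tested. The lowest of the measured pairs was Ccnd3, a G1 cyclin, with Ccnb1, at -0.37, -0.36 and -0.09.

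**Figure D3:**
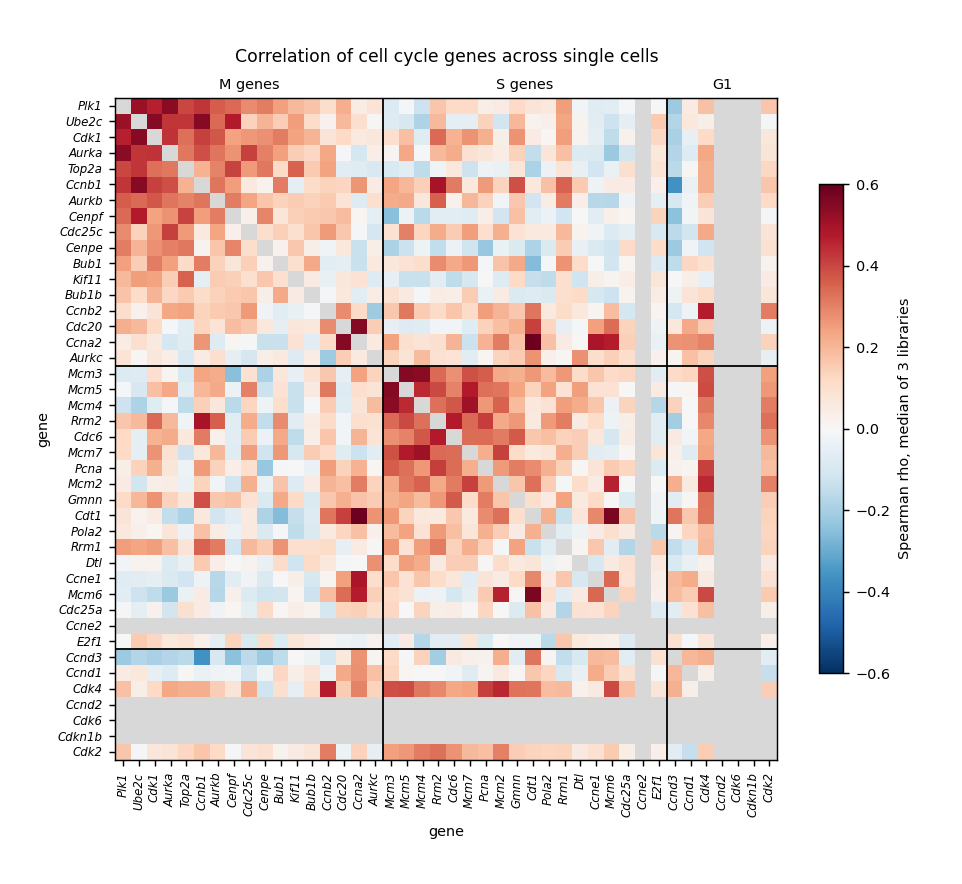
Spearman's rho between the thinned counts of each pair of genes across single cells, as the median of 3 libraries; red is positive, blue negative, and grey marks the diagonal and 4 genes seen in too few cells. The block at the upper left holds the mitotic genes around Plk1 and Ube2c (rho 0.52) and the middle block the Mcm genes around Mcm3 and Mcm5 (rho 0.55), while Cdt1 and Ccna2 (rho 0.59) stand out between the blocks.

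Another set of high values linked genes of different phases. Cdt1 and Ccna2 had the highest median of all pairs at 0.59 (0.25, 0.59 and 0.61 in replicates 1, 2 and 3), followed by Mcm6 and Cdt1 at 0.57 and by Ccna2 and Cdc20 at 0.55 (0.37, 0.55 and 0.57). Ccne1 and Ccna2 gave 0.13, 0.60 and 0.49. These values moved with the number of the cell barcode. In barcodes 33 to 64, Ccna2 was at 8.09 CPM in replicate 2 and 20.8 CPM in replicate 3, against 198 and 137 CPM, and 92.7 and 238 CPM, in barcodes 1 to 32 and 65 to 96 of the same libraries. Cdt1 was at 21.1 and 36.2 CPM there, against 127 to 325 CPM in the other barcodes, and Cdc20 at 23.2 and 46.7 CPM, against 131 to 343 CPM. In replicate 1 the level of Ccna2 was 118, 164 and 172 CPM in the 3 sets of barcodes, with no such dip.

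Plk1, Ube2c and Ccnb1 did not dip in barcodes 33 to 64 of either library. Of 3795 genes of at least 50 CPM, 122 (3.21%) were under 1/4 of both other sets in replicates 2 and 3 alike, against 2 for barcodes 1 to 32 and 14 for barcodes 65 to 96. Ccna2 was the only such gene among the 33 members at that level. No label explains the barcode numbers. Within single sets of barcodes, of 16 to 26 cells each, the median rho fell from 0.59 to 0.33 for Cdt1 and Ccna2, from 0.55 to 0.25 for Ccna2 and Cdc20 and from 0.41 to 0.01 for Cdt1 and Cdc20. It was 0.49 for Plk1 and Ube2c, 0.52 for Plk1 and Aurka and 0.44 for Mcm3 and Mcm5. Over the 21 pairs of the 7 mitotic genes the median moved from 0.41 to 0.398, but these genes were picked for their correlations in the same cells. Over the 15 pairs of Mcm genes, taken by name, it moved from 0.38 to 0.23, with Mcm2 and Mcm6 falling from 0.46 to 0.08. Because of that choice the 2 groups cannot be compared in how well they held.

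**Figure D4:**
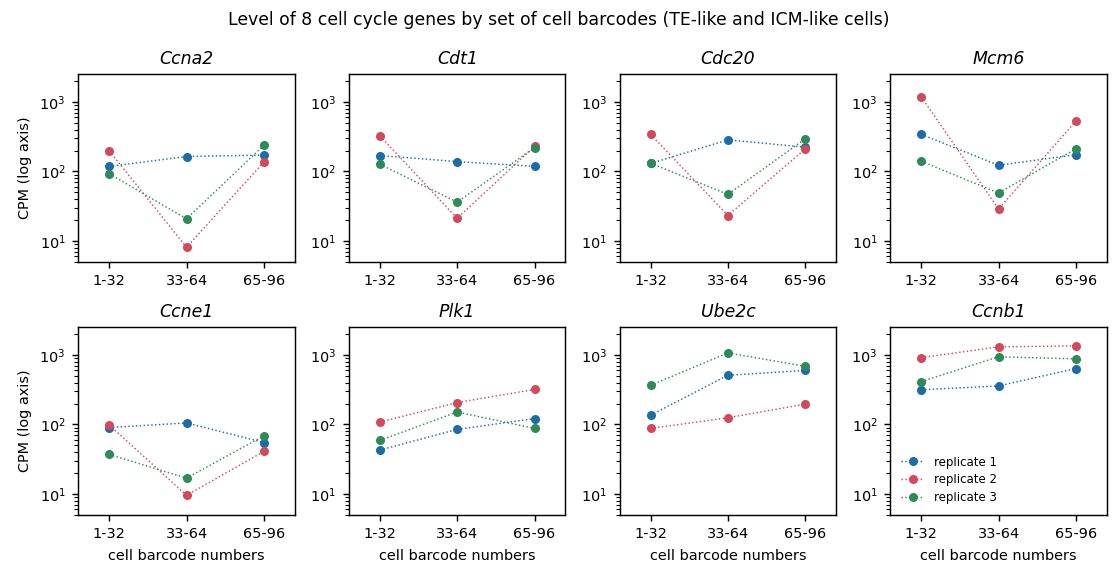
Level of 8 genes in the TE-like and ICM-like cells of barcodes 1 to 32, 33 to 64 and 65 to 96, in CPM on a log axis; each colour is a library. Ccna2, Cdt1, Cdc20, Mcm6 and Ccne1 dip in barcodes 33 to 64 of replicates 2 and 3, Ccna2 to 8.09 and 20.8 CPM. In replicate 1 only Mcm6 of these 5 is lowest there (123 CPM, against 342 and 174), while Plk1, Ube2c and Ccnb1 do not dip there.

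Among 6118 genes with a count in at least 25% of the thinned cells of every library, 6 of the 10 most like the summed M phase genes were in the lists of cell cycle genes. Bub3, a checkpoint protein, gave a median rho of 0.63, the tubulin gene Tubb4b and the spindle gene Hmmr 0.62 each and Cks2, which binds Cdk1, 0.57. Cdca2 and Tpx2 were the other members of the lists, and Tuba1c, Mrpl22, Syf2 and Bst2, which are in none, completed the first 10. For Plk1 alone, 8 of its 10 closest genes were in these lists or among the genes examined here. Of all genes measured, 1.86% belong to the lists or to the genes examined. Among the 8, Aurka, Ube2c, Cdk1 and Ccnb1 are in the mitotic group that was picked for its correlations. Of 35 examined genes that could be measured this way, 4 had at least 5 such genes: Plk1, Ube2c, Aurka and Top2a. Another 15 had none. For the summed S phase genes Vdac1 (0.59), Cdca5 (0.56), Ckb (0.54), Copb2 (0.54), Psmd6, Bzw1, Hnrnpk, Mtg1, Psmd13 and Dap3 came first, and none was in the lists. Ccna2 was most like Mrps24 at 0.73, and none of its 10 closest genes was in the lists either.

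The design allows the question whether cycling genes differ between the outer and the inner cells. Counts were summed per class and library and tested for all 12482 genes that passed a filter on low counts, with edgeR's quasi-likelihood test and the library as a block. All 42 genes passed that filter, and 2 of them were called, both lower in TE-like cells. Of all genes 6.53% were called, and 2.48% were called lower in TE-like cells, so a count of 2 in 42 is near the background and is no result about this group of genes. The median log2 fold change was -0.01 for the 42 genes and -0.01 for all genes. The 95% interval lay within 2-fold either way for 32 of the 42, among them all 6 Mcm genes, Cdk1, Ccnb1, Plk1 and Top2a.

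Aurkc fell most in TE-like cells. This Aurora kinase, known from meiosis and early embryos, was at 27.6, 18.7 and 43.0 CPM in ICM-like cells and at 7.94, 1.16 and 4.91 CPM in TE-like cells of replicates 1, 2 and 3, and the groups did not overlap. It had a count in 16 of 36, 16 of 27 and 21 of 36 ICM-like cells and in 11 of 28, 2 of 33 and 8 of 37 TE-like cells. The log2 fold change was -2.92 (SE 0.53, 95% interval -4.10 to -1.74, edgeR adjusted p = 0.00824), lower in 3 of 3 libraries. It was no longer called without replicate 3 (adjusted p = 0.135), with cells of at least 4000 genes (adjusted p = 0.105) or without the library as a block (adjusted p = 0.574), with log2 fold changes of -2.81, -2.80 and -2.57. The limit of 4000 genes also left an ICM-like cluster unnamed, so it changed the class as well as the depth. With cluster 2 or 3 alone as its class the adjusted p was 0.066 and 0.076. Aurkc lies on chromosome 7 (6995300 to 7003091, plus strand, GRCm38.p6), and a processed pseudogene, Gm12463, holds 70.3% of the 31-base words of the last 500 bases of its transcripts, so its counts are uncertain. The summed level of the 6 oocyte markers was 51.5, 9.2 and 21.4 CPM for ICM-like and 24.0, 10.02 and 10.2 CPM for TE-like cells, and their part in the result was not tested. The relatives Aurka and Aurkb were not called, with log2 fold changes of 0.28 and -0.50 (edgeR adjusted p = 0.430 and 0.222).

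Dtl, the receptor of the ubiquitin ligase that removes Cdt1 in S phase, was the other gene called. It was at 87.9, 367 and 151 CPM in ICM-like cells and at 62.8, 198 and 75.3 CPM in TE-like cells of the same libraries, lower in 3 of 3 although the groups overlap across libraries. The log2 fold change was -0.77 (SE 0.19, 95% interval -1.18 to -0.36, edgeR adjusted p = 0.0343). Without replicate 2 the adjusted p was 0.145, without replicate 3 it was 0.207 and without the library as a block 0.9999, while the log2 fold change stayed at -0.68, -0.65 and -0.84. The call was also lost at clustering resolution 1.0 (edgeR adjusted p = 0.051) and with cluster 0, 2 or 3 alone as its class (edgeR adjusted p = 0.081 to 0.362). Dtl lies on chromosome 1 (191537356 to 191575544, minus strand), and no other annotated gene overlaps its exons.

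The other 40 genes were not called. Rrm2 came closest: TE-like cells had 388, 2731 and 1229 CPM, and ICM-like cells had 275, 1979 and 1011 CPM. Its log2 fold change was 0.44 (SE 0.12, edgeR adjusted p = 0.055), higher in 3 of 3 libraries. It was called without TMM factors, without the filter and at clustering resolution 1.0 (edgeR adjusted p = 0.029, 0.045 and 0.049). With a replicate left out or with thinned cells it was not called (edgeR adjusted p = 0.085 to 0.169). For Ccnb2 the TE-like levels were 262, 144 and 254 CPM and the ICM-like levels 196, 106 and 170 CPM, with a log2 fold change of 0.51 (SE 0.16, edgeR adjusted p = 0.087). For Cdk2 they were 10.1, 584 and 116 CPM and 12.3, 205 and 61.9 CPM (edgeR adjusted p = 0.117). Cdk6 had 87, 51 and 350 counts in TE-like cells and 43, 10 and 2 in ICM-like cells (edgeR adjusted p = 0.215). DESeq2 called 7 of the 42: Aurkc, Dtl, Rrm2, Ccnb2, Cdk2, Ccnd2 and Cdk6, and 12.4% of all genes. Mcm3 was nearly equal in the 2 classes of each library, with 172, 557 and 141 CPM against 177, 557 and 142 CPM.

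**Figure D5:**
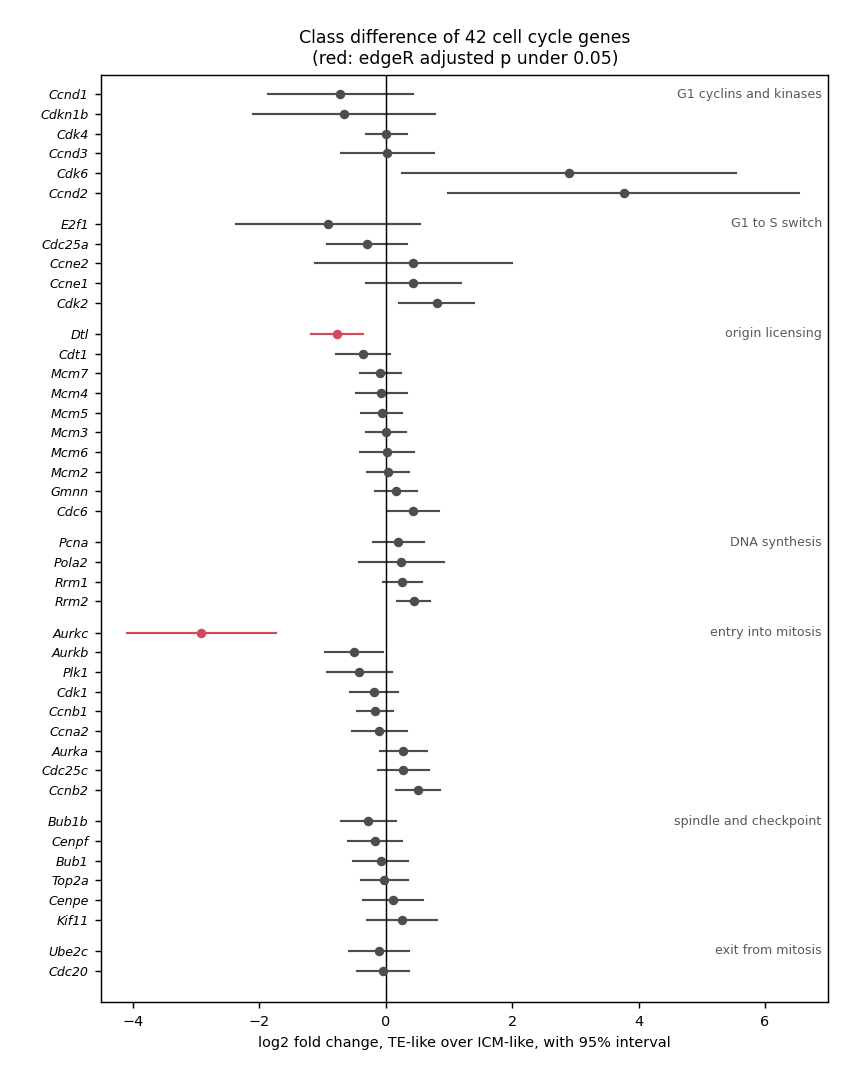
Log2 fold change of TE-like over ICM-like cells for each of the 42 genes with its 95% interval, from edgeR with the library as a block, in groups of like function. Aurkc (-2.92) and Dtl (-0.77), in red, are the 2 genes called, and the wide intervals of Ccnd2 and Cdk6 go with counts as low as 1 and 2 in ICM-like cells of a library.

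Other cell cycle genes were read from 3 lists. Of 33 genes of S phase and replication, all tested, 1 rose in TE-like cells and none fell: Tk1, thymidine kinase, was at 255, 129 and 343 CPM against 168, 84.6 and 227 CPM (log2 fold change 0.63, edgeR adjusted p = 0.0337). Of 37 genes of G2 and M phase tested, 1 rose and none fell: Anln, which encodes anillin of the contractile ring, was at 69.2, 277 and 115 CPM against 53.5, 100 and 61.9 CPM (log2 fold change 0.94, edgeR adjusted p = 0.0287). Of 23 regulators tested, none rose and 1 fell: Cdkn1a, which encodes the Cdk inhibitor p21, was at 108, 42.4 and 234 CPM against 229, 82.8 and 427 CPM (log2 fold change -0.95, edgeR adjusted p = 0.00465). The median log2 fold change of the 3 lists was -0.07, 0.08 and 0.38, beside -0.01 over all genes. With 6.53% of all genes called, these counts are at or below the background.

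Each class was made of 2 clusters, and these were compared after the data had been seen. In TE-like cells, 61 cells of a cluster led by Lrp2, Dppa1 and Id2 were set against 37 cells of a cluster led by Id2 and Gata3, of which 35 had barcodes 1 to 32. edgeR called 0% of 11261 genes, 0 of the 42 among them, while 1189 genes and 11 of the 42 had an unadjusted p under 0.05. Plk1 was at 79.8, 291 and 130 CPM in the first and 31.9, 67.1 and 59.7 CPM in the second cluster, without overlap (log2 difference 1.60, SE 0.31, edgeR adjusted p = 0.309). Ube2c was at 465, 193 and 997 against 150, 79.6 and 487 CPM (adjusted p = 0.261 by edgeR). Mcm6 was at 181.9, 293 and 39.1 against 304, 1235 and 201 CPM (adjusted p = 0.309 by edgeR). DESeq2 called 7 of the 42: Ccnb1, Plk1, Ube2c and Rrm2 higher and Ccnd3, Ccne1 and Mcm6 lower in the first cluster, with 3.07% of all genes called. Between cells of barcodes 1 to 32 alone, with 3, 5 and 4 cells of the first and 13, 10 and 12 of the second cluster, edgeR called 0 of 10117 genes, and 342 genes and 4 of the 42 had an unadjusted p under 0.05. There Plk1 was at 3.58, 376 and 31.8 against 31.2, 67.1 and 55.9 CPM, with no common direction, and the 3.58 is a single count. Mcm6 was lower in the first cluster in all 3 libraries there too, at 150, 299.9 and 11.01 against 311, 1235 and 204 CPM (adjusted p = 0.740 by edgeR).

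In ICM-like cells, 45 cells of a cluster led by Spic and Cdkn1a were set against 54 cells of a cluster led by Tdgf1. edgeR called 2 of 11153 genes (0.0179%) and 0 of the 40 tested of the 42. Ccna2 was at 181.5, 228 and 224 CPM in the first and 114, 51.9 and 61.9 CPM in the second cluster (log2 difference 1.57, SE 0.37, edgeR adjusted p = 0.218). Cdc20 was at 271, 322 and 243 against 154, 82.0 and 125 CPM (adjusted p = 0.243 by edgeR). DESeq2 called 3 members, Ccna2, Cdc20 and Ccne1, and 2.86% of all genes. Of the 54 cells, 19 had barcodes 33 to 64, where these genes were low in replicates 2 and 3, against 11 of the 45.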

How the data were processed

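The authors deposited raw counts, whole numbers for each gene and barcode, of 3 libraries of 96 barcodes each. Per the labels, cDNA was made with a Smart-seq2 protocol whose oligo(dT) primer carried a cell barcode and a unique molecular identifier, and 3' fragments were sequenced. CASAVA 1.8, HISAT2 and HTSeq with build mm10 are listed in the submitters' processing notes. No source used here gives the annotation, the strand setting or whether identifiers were collapsed, and the counts may be reads or molecules.

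Barcodes with at least 2000 genes were kept, which held 99.8%, 99.7% and 99.7% of totals of 30573711, 27610866 and 54444536 counts. Doublets were not called in these hand-picked cells. Cells were clustered with scanpy 1.11.5 on 53 markers (Leiden, resolution 0.5) and named TE-like or ICM-like from the markers; the cluster left unnamed had a median total of 0.336 of its library's median. Summed counts per library and class, in classes of at least 8 cells (2 where split by barcode set), were tested with edgeR 4.0.16 (filterByExpr, TMM factors, quasi-likelihood test, library as a block because both classes came from the same libraries, Benjamini-Hochberg threshold 0.05). DESeq2 1.42.0 and limma 3.58.1 were alternatives, and the test was checked on simulated data with 200 changed genes. It recovered 48% of log2 changes of 1 and 91% of log2 changes of 2, and 11 of its 150 calls were false. A gene that was not called can therefore still differ by 2-fold. The p-values leave out the uncertainty of drawing the classes on the tested cells. Correlations used scipy 1.17.1. The alternatives left out a replicate, the block, TMM factors, the filter, shallow cells or cells of high total, and changed thinning, clustering or the weight of cells.

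The members and lists were chosen with earlier results of these data known. All 42 genes are accounted for; values in every library are given for called genes, cyclins and the 3 highest genes of each role, and for the genes most correlated with the summed M and S phase counts. Other genes with values were chosen after these were seen.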

Additional observations from a re-analysis of the deposited data

How the results depend on the processing

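Of the 42 genes, 2 were called in the class difference, and 815 of all genes. The number of members called was 7 with DESeq2 (1628 genes), 0 without the replicate block (0 genes, with 697 at an unadjusted p under 0.05), 1 with cells of at least 4000 genes (281 genes), 0 to 3 when a replicate was left out (281 to 722 genes), 0 with only cluster 2 (194 genes) and 1 with only cluster 3 (390 genes) as its class. Blocking by barcode set within library gave 520 genes and limma on means over cells 1272, with 2 and 3 members. No member changed direction while called. The cause of these shifts was not tested. Between the 2 TE-like clusters DESeq2 called 7 members, and edgeR called 0 with all replicates and 0 to 1 when a replicate was left out. Between the 2 ICM-like clusters DESeq2 called 3, and edgeR called 0 with all replicates and 0 to 3 when a replicate was left out. Median rho of S phase pairs was 0.059 in ICM-like cells alone, 0.18 as Pearson correlation of unthinned log2 CPM and 0.0858 in replicate 2 alone, against 0.13. For mixed pairs it was -0.0414 in TE-like cells alone and 0.13 in replicate 1 alone, against 0.05, and for M phase pairs 0.30 in replicate 1, 0.0665 in replicate 2 and 0.0759 in TE-like cells alone, against 0.15. Cyclin shares and summed levels moved by less than 1 SD between libraries in every setting run. That SD is wide, at 19.4 percentage points for the Ccnd3 share and 3730 CPM on a mean of 4775 CPM for the S phase sum. Large shifts can therefore stay below it. With 3 libraries the depth limits Ccnd2, Cdk6, Cdkn1b, Ccne2 and E2f1, at under 10 CPM in most libraries.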

Other observations

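The 28 unnamed cells had lower sums of these genes, measured mainly in replicate 1. In replicate 1, where 16 of them could be thinned to 50000 counts, the 42 genes summed to a median of 81 counts, with a range of 37 to 555, against medians of 250 over 26 TE-like cells and 255 over 32 ICM-like cells. In replicates 2 and 3 only 2 and 3 of them could be thinned, with medians of 458 and 174. Those of TE-like cells were 692 and 341 and those of ICM-like cells 676 and 335. Single genes could go the other way. In replicate 2 Top2a was at 1341 CPM in unnamed cells and at 294 to 444 CPM in the named clusters. The share of a gene's counts of replicate 1 that lay in unnamed cells ran from 2.44% for Mcm7 to 92.1% for Cdk6. Next after Cdk6 came Bub1b (84.2%), Pola2 (73.6%), Dtl (62.3%) and Kif11 (57.9%). Of the 30573711 counts of that library over all genes and barcodes, TE-like cells held 9571454 and ICM-like cells 10269310. A single cell with a total of 395372 counts held 3910 Bub1b counts, and the other 82 cells of that library held 855.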
